A study of Homo sapiens with 24 samples.

Results

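Aminoacyl-tRNA synthetases attach each amino acid to its transfer RNA, the step that lets a ribosome read a codon as an amino acid. Human cells hold separate nuclear-encoded enzymes for protein synthesis in the cytosol and in mitochondria, while a few genes, such as GARS1 and KARS1 for glycine and lysine, serve both compartments. Several cytosolic enzymes sit together in the multisynthetase complex, held by the scaffold proteins AIMP1, AIMP2 and EEF1E1. Many cytosolic synthetase genes are known targets of ATF4, the transcription factor of the integrated stress response, which arsenite activates.

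The genes described here were 36 of the 60308 genes in the exon count table, taken by symbol: 20 cytosolic enzymes and 16 mitochondrial enzymes, with GARS1 and KARS1 counted as cytosolic. The intron count table held 35 of them among 37473 genes, since the MARS2 gene has a single exon. The aspartyl enzymes were not analysed here.

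RNA came from U2OS cells, a human osteosarcoma cell line, in 4 treatments of which each gave 2 cytoplasmic fractions in 3 replicates, 24 libraries in all. Ctrl cells received 0.12% DMSO for 2 h, and NaAsO2 cells received sodium arsenite, an oxidative stressor that assembles stress granules, at 500 µM for 60 min. RK-33 cells received 6 µM of RK-33, an inhibitor of the RNA helicase DDX3, starting 1 h beforehand, and Combo cells received RK-33 followed by NaAsO2 at those doses. After removal of nuclei, the cytoplasm was split by centrifugation into a supernatant (soluble) and a pellet enriched in RNP granules (insoluble). The pellet is an enrichment and not a purified granule, and all groups come from a single cell line.

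Exon libraries held 8627294 to 15376554 counts and intron libraries 1621536 to 6092652. Of the osteosarcoma lineage markers, COL1A1, SPARC, VIM, RUNX2 and ALPL were above 5 CPM (counts scaled to library size) in every library, COL1A2 was at 2.28 CPM or less, and 5 markers of other cell types summed to 3.62 to 9.68 CPM. Replicate 3 of NaAsO2 insoluble, Combo insoluble and RK-33 soluble stood apart from the other replicates of their groups: the chi-square per degree of freedom of the 6 pairs they form was 23.1 to 142 against 2.39 to 7.01 in the other 18 pairs. The 3 replicates of a group are repeats of the experiment, and p-values measure the spread between these libraries.

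The synthetases on the ATF4 list were AARS1, CARS1, EPRS1, GARS1, IARS1, MARS1, NARS1, SARS1, TARS1, WARS1 and YARS1, 11 of the 20 cytosolic genes. Since these genes moved together in several comparisons below, their promoters are shown. RefSeq promoters (GRCh38.p14, 250 bases before to 50 bases after a transcript start) were found for 30 of the 36 genes. The motif TGATGNAA, a form of the composite element that ATF4 binds with C/EBP proteins, was searched on both strands, so a hit reads TGATGNAA or TTNCATCA. It was in 7 of the 10 promoters of the ATF4 list, in 0 of 6 promoters of the other cytosolic genes and in 1 of 14 mitochondrial promoters, YARS2, against 4.46% of all 27305 genes in the table. A match is a description of the sequence and not evidence of binding. Each 30-base window is written 5′ to 3′ on the strand of its gene, with the motif in capitals.
TARS1, chr5:33440956-33440985 (+): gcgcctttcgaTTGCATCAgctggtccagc
GARS1, chr7:30594834-30594863 (+): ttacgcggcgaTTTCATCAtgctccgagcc
IARS1, chr9:92293692-92293721 (-): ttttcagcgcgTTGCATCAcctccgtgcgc
CARS1, chr11:3057407-3057436 (-): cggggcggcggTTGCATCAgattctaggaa
MARS1, chr12:57488053-57488082 (+): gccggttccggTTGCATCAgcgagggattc
AARS1, chr16:70289675-70289704 (-): ttttctcgcagTTGCATCAgccaagttaga
NARS1, chr18:57621804-57621833 (-): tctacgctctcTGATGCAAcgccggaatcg
YARS2, chr12:32756076-32756105 (-): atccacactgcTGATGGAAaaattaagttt

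The 8 letters TTGCATCA were shared by TARS1, IARS1, CARS1, MARS1 and AARS1, and NARS1 holds the same letters on the other strand. The motif began within 13 bases of the transcript start in TARS1, CARS1, MARS1 and IARS1, at position 15 in NARS1, 33 bases upstream in GARS1, 187 bases upstream in AARS1 and 197 bases upstream in YARS2.

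Per length, cytosolic synthetase mRNAs were the more abundant set. The median level was 17.95 RPKM (CPM per kilobase of merged exons) for the 20 cytosolic genes and 4.15 RPKM for the 16 mitochondrial genes, as means over all 24 libraries. By this length TARS1, for threonine, was highest at 60.01 RPKM, followed by EPRS1, the glutamyl-prolyl enzyme, at 55.6 RPKM, VARS1 for valine at 52.9 RPKM and KARS1 at 47.2 RPKM. IARS2, the mitochondrial isoleucyl enzyme, stood apart from its set at 40.02 RPKM, above 16 of the cytosolic genes, and AARS2 for alanine came next among mitochondrial genes at 11.6 RPKM. These ranks depend on the length. By TPM EPRS1 came first and TARS1 next, and by the length of the canonical transcript GARS1 came first, TARS1 was at rank 3, EPRS1 at rank 10 and IARS2 at rank 13 of the 36, with NARS2 and RARS2 above AARS2. The lowest levels were those of SARS2 at 0.955 RPKM and VARS2 at 0.0979 RPKM. VARS2 had only 2 to 22 counts per library, fell under the minimum of 1 mean CPM and was not tested, so tests cover 35 genes. The ratio of the set medians was 4.33 by merged exon length and 7.33 by the length of the canonical transcript.

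**Figure D1:**
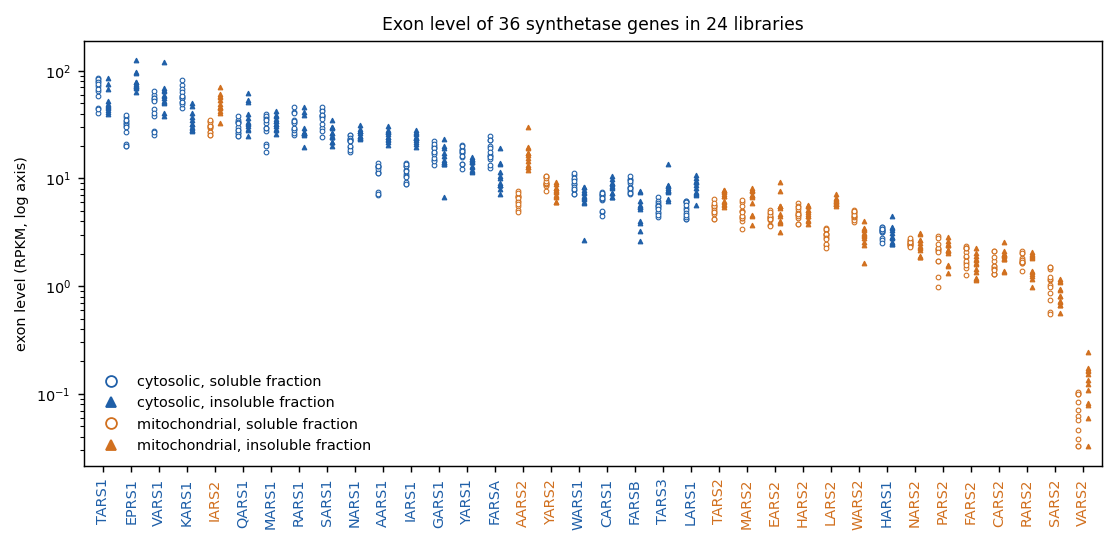
Exon level in RPKM (log axis) of the 36 synthetase genes in order of mean level, 1 point per library, with open circles for the soluble and triangles for the insoluble fraction, cytosolic genes in blue and mitochondrial genes in orange. TARS1 is highest at a mean of 60.01 RPKM, IARS2 stands among the cytosolic genes at 40.02 RPKM, and VARS2 is far lowest at 0.0979 RPKM.

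Exon bases that overlap another gene limit some values. Fragments were counted without regard to strand, so genes on the opposite strand are included. The overlap covered 63.0% of exon bases in VARS2, 48.2% in SARS2, 18.1% in YARS2, 13.3% in MARS1 (DDIT3 lies on the opposite strand), 10.6% in WARS1, 8.46% in HARS1 and 6.99% in HARS2. HARS1 and HARS2 overlap each other at their 5′ ends. VARS2 and SARS2 share their bases with genes on the same strand, which strand could not separate. Introns of VARS2, SARS2 and AARS2, shared in full with other genes, made up 0% of counts in every group. Counts in shared exon bases may be lost likewise, so VARS2 and SARS2 levels per full exon length may be too low.

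In unstressed cells, synthetase mRNAs leaned to the insoluble fraction. Of the 20 cytosolic genes, 13 were called higher in the insoluble than in the soluble fraction of Ctrl cells and 0 lower, and of the 15 mitochondrial genes tested, 6 were called higher and 1 lower. Called means a Benjamini-Hochberg adjusted p under 0.05 in edgeR's quasi-likelihood test over all 17666 genes tested, and in this comparison 24.6% of all genes tested were called higher and 26.4% lower. Log2 fold changes, insoluble against soluble, had a median of 0.65 for cytosolic genes, 0.32 for mitochondrial genes and -0.02 for all genes. Each library is scaled to its own total, so these are shares of a fraction's RNA, and fewer cells or less RNA per cell or per fraction cannot be told apart from them.

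EPRS1 had the largest difference. Its level was 111, 107 and 106 CPM in the soluble and 510.3, 513 and 669.6 CPM in the insoluble Ctrl libraries. The log2 difference was 2.38 (SE 0.12, adjusted p = 4.67e-12), and the groups did not overlap. AARS1, the cytosolic alanyl enzyme, had 76.1, 72.7 and 73.8 CPM in the soluble and 210.4, 247 and 266 CPM in the insoluble libraries, a log2 difference of 1.701 (SE 0.13, adjusted p = 1.02e-09). IARS1 for isoleucine followed with 1.36 (SE 0.11, adjusted p = 2.93e-09) and VARS1 with 1.26 (SE 0.24, adjusted p = 0.000187). At the other end of the cytosolic set, FARSB, a subunit of the phenylalanyl enzyme, was at 50.5, 54.5 and 61.9 CPM and 41.7, 51.9 and 50.5 CPM, overlapping groups with a log2 difference of -0.21 (SE 0.16, adjusted p = 0.283).

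The same lean was seen in 6 mitochondrial genes. AARS2 was at 35.04, 36.1 and 32.7 CPM in the soluble and 67.2, 69.7 and 76.7 CPM in the insoluble libraries, without overlap, a log2 difference of 1.04 (SE 0.19, adjusted p = 0.000108). IARS2 was at 122, 126 and 129 CPM and 222, 242 and 292 CPM, a log2 difference of 1.004 (SE 0.16, adjusted p = 1.95e-05). LARS2, for leucine, differed by 0.88 (SE 0.10, adjusted p = 2.67e-07) and TARS2 by 0.73 (SE 0.14, adjusted p = 0.000252). WARS2, for tryptophan, was the exception, at 15.98, 16.96 and 14.99 CPM in the soluble and 11.6, 10.7 and 11.4 CPM in the insoluble libraries, a log2 difference of -0.51 (SE 0.18, adjusted p = 0.0204). That direction belongs to exon counts alone: with exon and intron counts added, WARS2 was higher in the insoluble fraction by 0.57 on the log2 scale. HARS2, GARS1 and WARS2 lost the call when single Ctrl libraries were left out, in 4, 3 and 1 of 6 fits.

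Of the 7 genes here whose enzymes belong to the multisynthetase complex, 6 were called higher in the Ctrl insoluble fraction, all but KARS1 at 181, 228 and 209 CPM soluble and 166, 190.5 and 204 CPM insoluble. The mRNAs of the scaffold went the other way. AIMP1 was at 64.2, 58.8 and 59.5 CPM in the soluble and 33.6, 31.8 and 32.2 CPM in the insoluble libraries, a log2 difference of -0.90 (SE 0.13, adjusted p = 3.89e-06), and AIMP2 differed by -0.95 (SE 0.15, adjusted p = 1.49e-05). EEF1E1 gave -0.59 (SE 0.29, adjusted p = 0.0886).

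After NaAsO2 the cytosolic set no longer leaned to the pellet. In NaAsO2 cells 4 cytosolic genes were called higher and 9 lower in the insoluble fraction, and 4 mitochondrial genes higher and 3 lower, where 28.9% of all genes tested were called higher and 28.8% lower. Medians were -0.16 for cytosolic, -0.06 for mitochondrial and 0.06 for all genes. Without the 3 libraries standing apart, the counts were 5 and 11 cytosolic and 4 and 7 mitochondrial genes.

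EPRS1 (1.11), AARS1 (0.9975), IARS1 (0.79) and TARS3 (0.70), a further cytosolic threonyl gene, were still higher in the pellet on the log2 scale. FARSB was the lowest, with 66.5, 65.4 and 71.1 CPM soluble and 26.03, 27.4 and 17.7 CPM insoluble, a log2 difference of -1.505 (SE 0.17, adjusted p = 6.75e-08). KARS1 (-1.12), WARS1 (-1.04) and TARS1 (-0.92) followed. Among mitochondrial genes AARS2 reached the largest difference of any synthetase in NaAsO2 cells, with 28.9, 26.97 and 25.4 CPM soluble and 81.8, 91.2 and 158 CPM insoluble, a log2 difference of 2.02 (SE 0.20, adjusted p = 8.49e-09). The third insoluble AARS2 value is that of the library standing apart, and leaving out single libraries gave log2 fold changes of 1.68 to 2.20. LARS2 differed by 1.29 (SE 0.10, adjusted p = 3.29e-10) and MARS2, for methionine, by 0.82 (SE 0.15, adjusted p = 4.97e-05), while WARS2 (-0.94), RARS2 (-0.74) and YARS2 (-0.66) were lower in the pellet.

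With RK-33 alone, 6 cytosolic genes were called higher and 5 lower in the insoluble fraction, and 5 mitochondrial genes higher and 1 lower, where 29.6% of all genes tested were called higher and 30% lower. The medians were 0.01 for cytosolic, 0.23 for mitochondrial and -0.00 for all genes. EPRS1 led again with 182, 161 and 144 CPM soluble and 417, 403 and 387 CPM insoluble, a log2 difference of 1.31 (SE 0.11, adjusted p = 2.54e-09). FARSA, the catalytic subunit of the phenylalanyl enzyme, was lowest at 36.8, 39.8 and 55.96 CPM soluble and 21.4, 22.2 and 21.1 CPM insoluble, a log2 difference of -1.03 (SE 0.22, adjusted p = 0.000344). FARSB was lower by exon counts (-0.43) but at 0.36, not called, with intron counts added, and WARS2 turned from -0.45 to 0.67. Without the 3 libraries standing apart, 7 cytosolic genes were higher and 8 lower, and 6 mitochondrial genes higher and 2 lower.

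Combo cells gave 6 cytosolic genes higher and 9 lower in the pellet, and 4 mitochondrial genes higher and 3 lower, where 25% of all genes tested were called higher and 27.2% lower. Medians were -0.16, -0.10 and 0.02 for cytosolic, mitochondrial and all genes. AARS2 (1.26), LARS2 (1.103), EPRS1 (1) and AARS1 (0.98) had the largest positive log2 fold changes, and FARSA (-1.04), KARS1 (-1.01), FARSB (-0.91) and TARS1 (-0.75) the largest negative ones. WARS2 (-0.57) came to 0.125 with intron counts added. In the fit without the 3 libraries the counts were 5 and 12 cytosolic and 4 and 5 mitochondrial genes.

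**Figure D2:**
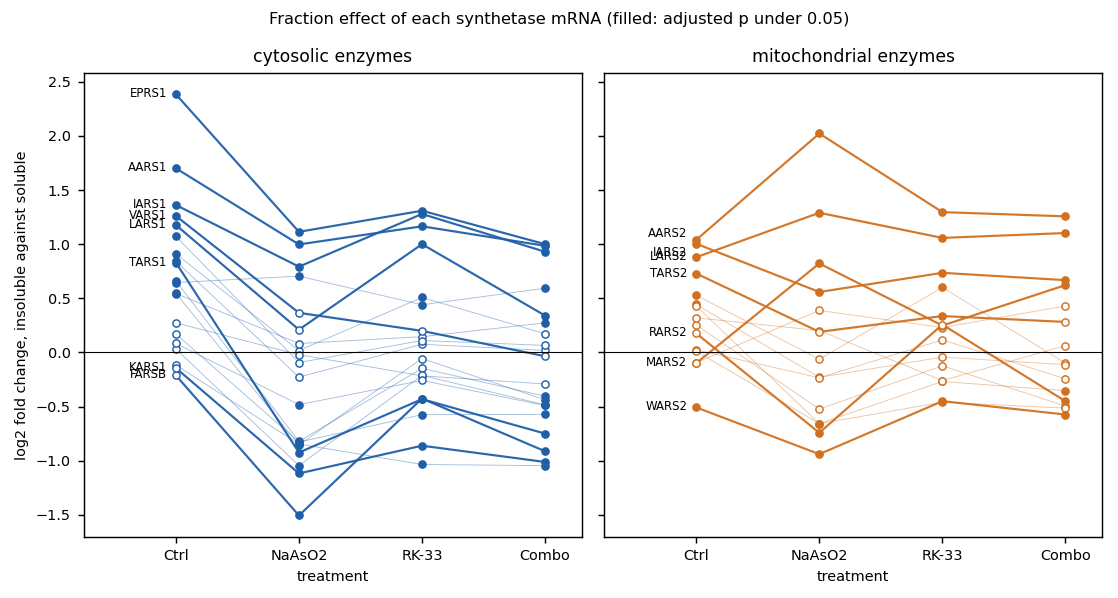
Log2 fold change of the insoluble against the soluble fraction (y axis) of each synthetase gene in the 4 treatments (x axis), cytosolic enzymes on the left and mitochondrial enzymes on the right, filled where adjusted p is under 0.05 and with heavier lines for the named genes. TARS1 goes from 0.83 in Ctrl to -0.92 in NaAsO2, EPRS1 from 2.38 to 1.11, and AARS2 from 1.04 to 2.02.

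The relation of the fraction effect to mRNA length depended on the length used. Spearman's rho between canonical transcript length, chosen after seeing the data, and the fraction effect was 0.54 in Ctrl, 0.51 in NaAsO2, 0.71 in RK-33 and 0.61 in Combo over the 20 cytosolic genes, and 0.11, 0.67, 0.51 and 0.72 over the 15 mitochondrial genes. All genes gave 0.30, 0.37, 0.34 and 0.42. With merged exon length, which the levels use, rho was 0.38, 0.34, 0.52 and 0.44 over the cytosolic genes, 0.22, 0.082, 0.58 and 0.15 over the mitochondrial genes, and 0.28, 0.26, 0.30 and 0.32 over all genes. These are descriptions across genes, which share libraries and are not replicates. Median canonical length was 2704.5 bases for the cytosolic and 2619.5 bases for the mitochondrial set. In Ctrl, the 10829 genes within the length range of the synthetases had a median fraction effect of -0.03.

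NaAsO2 raised the share of cytosolic synthetase mRNAs in the soluble fraction. Of the cytosolic genes 15 were called higher than in Ctrl and 0 lower, and of the mitochondrial genes 0 were called higher and 1 lower, where 5.97% of all genes tested were called higher and 6.99% lower. All 20 cytosolic log2 fold changes were above 0, with a median of 0.52 against 0.19 for mitochondrial and 0.03 for all genes. On the ATF4 list 10 of the 11 genes were called higher, and of the 9 cytosolic genes off the list 5 were. Their medians were close, at 0.52 on the list and 0.45 off it. Scaled by library size alone, synthetase values lay lower by 0.18 on the log2 scale at the median and 11 genes were higher and 2 lower, and without Ctrl soluble replicate 1 the number of genes called fell from 16 to 8. In a fit of only these groups 19 cytosolic genes were higher and 0 lower, and 4 mitochondrial genes were higher and 2 lower.

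VARS1 was at 148, 162 and 159 CPM in Ctrl and 347, 317 and 382 CPM in NaAsO2 soluble libraries, a log2 difference of 1.16 (SE 0.24, adjusted p = 0.00323). MARS1, the methionyl enzyme, went from 125, 148 and 142 CPM to 262, 229 and 279 CPM, a log2 difference of 0.90 (SE 0.16, adjusted p = 0.000899). For TARS1 the values were 171, 192 and 186 CPM and 346, 309 and 367 CPM, a log2 difference of 0.89 (SE 0.11, adjusted p = 1.9e-05). The NaAsO2 libraries lay above all Ctrl libraries for each of these genes. DDIT3, which overlaps MARS1 on the other strand, rose in the same comparison by 1.12 on the log2 scale, and its part in the MARS1 value was not tested. AARS1 followed with 0.78 (SE 0.13, adjusted p = 0.000415). LARS2 was the gene that fell, from 43.3, 41.3 and 42.1 CPM to 30, 30.7 and 28.2 CPM, a log2 difference of -0.51 (SE 0.10, adjusted p = 0.00212), whereas its cytosolic counterpart LARS1 rose by 0.45 (SE 0.11, adjusted p = 0.00991).

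In the insoluble fraction most calls in the cytosolic set were lower. After NaAsO2, 1 cytosolic gene was called higher and 11 lower than in Ctrl, and 4 mitochondrial genes higher and 2 lower, where 21.9% of all genes tested were called higher and 21% lower. Medians were -0.37 for cytosolic, -0.21 for mitochondrial and -0.00 for all genes. Scaled by library size alone the split over both sets was 3 higher and 16 lower instead of 5 and 13. When only the groups compared were fitted there were 3 calls, all of cytosolic genes that were lower. The fit without the 3 libraries standing apart gave 0 cytosolic genes higher and 14 lower, and 3 mitochondrial genes higher and 5 lower.

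FARSB fell from 41.7, 51.9 and 50.5 CPM to 26.03, 27.4 and 17.7 CPM, a log2 difference of -1.01 (SE 0.17, adjusted p = 7.08e-05). GARS1 fell from 335, 351 and 404 CPM to 239, 237 and 116 CPM, a log2 difference of -0.88 (SE 0.17, adjusted p = 0.000401). For TARS1 the insoluble level dropped from 291, 319 and 368 CPM to 194, 176 and 169 CPM, a log2 difference of -0.86 (SE 0.11, adjusted p = 4.02e-06). The NaAsO2 values lay under every Ctrl value for these genes. RARS1, for arginine, changed by -0.81 (SE 0.11, adjusted p = 1.43e-05), and TARS3 was the cytosolic gene called higher (0.44 (SE 0.17, adjusted p = 0.0369)). On the mitochondrial side MARS2 rose from 13.4, 11.1 and 13.8 CPM to 17.97, 23.03 and 23.4 CPM, a log2 difference of 0.75 (SE 0.15, adjusted p = 0.000413). EARS2 for glutamate (0.67), AARS2 (0.63) and PARS2 for proline (0.61) rose as well, and RARS2 (-0.68) and YARS2 (-0.48) fell on the log2 scale.

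The change of the fraction effect itself was tested as the insoluble-to-soluble difference in NaAsO2 minus that in Ctrl. It was called lower in 16 cytosolic genes and higher in 0, and called higher in 3 and lower in 4 mitochondrial genes, where 11.5% of all genes tested were called higher and 10.8% lower. The median change was -0.97 for cytosolic, -0.45 for mitochondrial and 0.00 for all genes, and every one of the 11 genes on the ATF4 list and of the 7 genes of the multisynthetase complex was called lower. Of the 9 cytosolic genes off the ATF4 list 5 were called lower and 8 changes were negative. Their median of -0.967 was close to that of the list, -0.998. With the lysate as a block, NARS1 of the ATF4 list was no longer called (adjusted p = 0.0699), nor were HARS2 (0.0559) and LARS2 (0.102). A fit of only the groups compared gave 12 cytosolic genes lower, and 2 mitochondrial genes higher and 1 lower. In the fit without the 3 libraries, 19 cytosolic genes were lower, and 3 mitochondrial genes were higher and 8 lower.

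TARS1 changed most, by -1.75 (SE 0.15, adjusted p = 1.78e-07): of Ctrl libraries the insoluble ones held more TARS1 and of NaAsO2 libraries the soluble ones did, with no overlap in either. RARS1 changed by -1.48 (SE 0.16, adjusted p = 2.51e-06), GARS1 by -1.399 (SE 0.24, adjusted p = 0.000271) and FARSB by -1.29 (SE 0.23, adjusted p = 0.000348). The 3 mitochondrial genes with a positive change were AARS2 by 0.98 (SE 0.27, adjusted p = 0.0107), MARS2 by 0.92 (SE 0.21, adjusted p = 0.00291) and LARS2 by 0.41 (SE 0.14, adjusted p = 0.0392), the last not called with the lysate block. RARS2 (-0.92), HARS2 (-0.67), YARS2 (-0.67) and CARS2 (-0.59) changed in the negative direction.

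RK-33 alone gave smaller changes. Against Ctrl, 5 cytosolic genes and 1 mitochondrial gene were called higher in the soluble fraction and 0 of either set lower, where 2.03% of all genes tested were called higher and 3.16% lower. Median changes were 0.29 for cytosolic, 0.18 for mitochondrial and -0.01 for all genes. The 5 cytosolic genes, AARS1 (0.76), MARS1 (0.70), EPRS1 (0.59), TARS1 (0.57) and CARS1 (0.49), are all on the ATF4 list. AARS1 was at 76.1, 72.7 and 73.8 CPM in Ctrl and 118, 127 and 133 CPM in RK-33 libraries, with no overlap (adjusted p = 0.000911). PARS2 rose from 2.34, 4.05 and 2.89 CPM to 5.29, 6.93 and 5.76 CPM, a log2 difference of 0.95 (SE 0.24, adjusted p = 0.0182) on few counts. Without the 3 libraries standing apart, of which 1 is an RK-33 soluble library, 9 cytosolic genes were higher, and fitting only the groups compared called 9 cytosolic and 2 mitochondrial genes higher.

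In the insoluble fraction RK-33 lowered 5 cytosolic genes and raised 0, and raised 1 mitochondrial gene and lowered 1, where 5.76% of all genes tested were called higher and 8.09% lower. The medians were -0.24 for cytosolic, 0.01 for mitochondrial and 0.00 for all genes. QARS1, the glutaminyl enzyme, went from 242, 253 and 291 CPM to 156, 156 and 145 CPM, a log2 difference of -0.78 (SE 0.14, adjusted p = 0.000593). TARS1 (-0.69), RARS1 (-0.62), KARS1 (-0.62) and EPRS1 (-0.49) fell too. MARS2 rose from 13.4, 11.1 and 13.8 CPM to 21.4, 20.9 and 20.3 CPM, a log2 difference of 0.71 (SE 0.15, adjusted p = 0.00198), and IARS2 fell by 0.48 on the log2 scale. Scaled by library size alone the split over both sets was 3 higher and 5 lower instead of 1 and 6. Fitting only the groups compared called 1 cytosolic gene higher and 10 lower, and 3 mitochondrial genes higher and 1 lower.

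The fraction effect changed between RK-33 and Ctrl in 5 cytosolic genes, all lower, and in 0 mitochondrial genes, where 0.577% of all genes tested were called higher and 1.44% lower. All 20 cytosolic changes were under 0, with a median of -0.57 against 0.06 for mitochondrial and 0.01 for all genes. TARS1 (-1.26 (SE 0.15, adjusted p = 0.000255)), EPRS1 (-1.07 (SE 0.16, adjusted p = 0.000715)) and QARS1 (-0.96 (SE 0.20, adjusted p = 0.0136)) changed most. RARS1 (-0.81) and KARS1 (-0.72) were the other 2. With the lysate as a block QARS1 (adjusted p = 0.069), RARS1 (0.0844) and KARS1 (0.0804) lost the call, exon plus intron counts gave 2 genes, and leaving out single libraries gave 3 to 6. Without the 3 libraries standing apart the count was 13, and with only the groups compared it was 14. The RK-33 and NaAsO2 comparisons share the Ctrl libraries, so their likeness for TARS1 or EPRS1 is not independent.

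**Figure D3:**
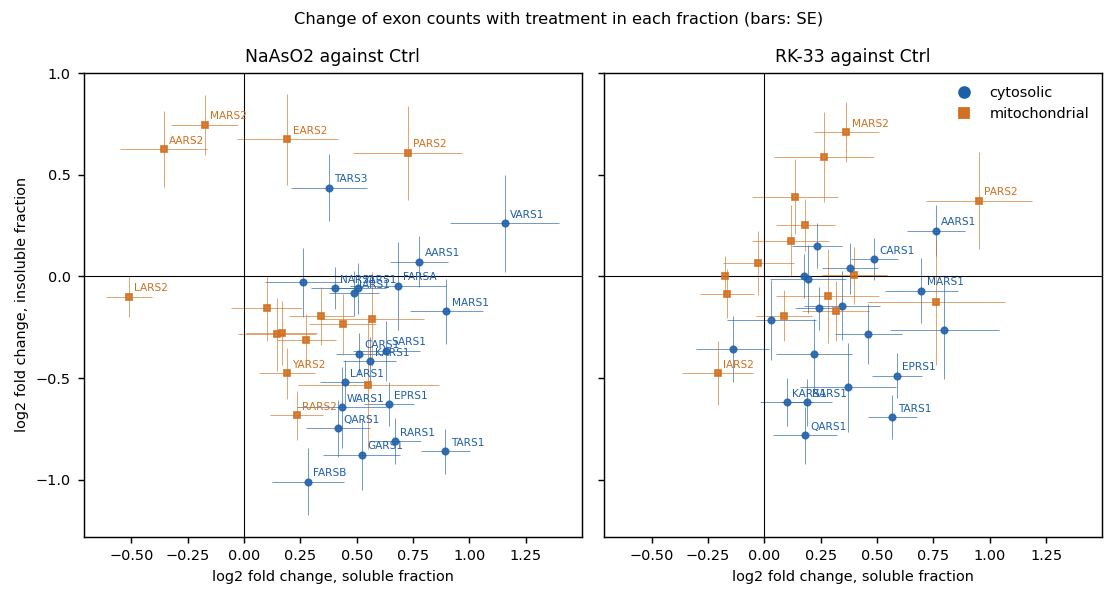
Log2 fold change against Ctrl in the soluble fraction (x axis) and in the insoluble fraction (y axis) for NaAsO2 on the left and RK-33 on the right, 1 point per gene with bars of 1 SE and names for genes called in either fraction. After NaAsO2 all cytosolic genes lie to the right of 0 and most lie under 0 (medians 0.52 and -0.37), while MARS2 lies at 0.75 and AARS2 at 0.63 in the insoluble fraction.

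Exon counts were next compared between arsenite with and without RK-33. Between Combo and NaAsO2, edgeR's quasi-likelihood test called 0 synthetase genes in the soluble fraction, where 4.74% of all genes tested were called higher and 1.68% lower, 0 in the insoluble fraction, where 6.59% of all genes tested were called higher and 7.14% lower, and 0 for the change of the fraction effect, where 0.136% of all genes tested were called higher and 0.232% lower. At an unadjusted p under 0.05 there were 4 cytosolic and 3 mitochondrial genes in the soluble, 5 and 3 in the insoluble comparison, and 2 and 1 for the change. The likelihood ratio test called 0, 1 and 0 genes and DESeq2 2, 3 and 0. Fitting only the groups compared called 10, 0 and 0: in the soluble fraction 1 cytosolic gene was higher and 4 lower, and 4 mitochondrial genes were higher and 1 lower. VARS1 had 297, 348 and 705 CPM in the NaAsO2 and 238, 222 and 393 CPM in the Combo pellet, overlapping groups with a log2 difference of -0.66 (SE 0.24, adjusted p = 0.0669). In the pellet, deviations from the group means correlated between libraries of the same replicate number in these 2 treatments. Replicate 3 stood apart in both groups, which can produce this correlation, so pairing of replicates 1 and 2 is not shown. With the number as a block VARS1 was called at -0.64 (adjusted p = 0.0455). In the fit without the 3 libraries standing apart 7 genes were called in the pellet, 3 higher and 4 lower.

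As a set, cytosolic counts stood to mitochondrial counts as 5.34 ± 0.21 (SD, n = 3) to 1 in Ctrl soluble libraries and 7.75 ± 0.42 in NaAsO2 soluble libraries. In the pellet the ratio was 6.49 ± 0.24 in Ctrl and 5.33 ± 0.11 in NaAsO2, so the order of the fractions was opposite in these treatments. RK-33 gave 6.84 ± 0.38 soluble and 5.74 ± 0.16 insoluble, and Combo 7.43 ± 0.25 and 5.73 ± 0.16. Cytosolic genes took 0.223 to 0.431% of exon counts and mitochondrial genes 0.0392 to 0.0646%.

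Enzymes for the same amino acid could be set side by side in 13 pairs, as the ratio of cytosolic to mitochondrial counts within each library. AARS1 to AARS2 was 2.17, 2.01 and 2.26 in Ctrl soluble and 4.58, 4.24 and 5.3 in NaAsO2 soluble libraries. In the pellet it was 3.13, 3.55 and 3.46 in Ctrl and 2.92, 3.02 and 1.56 in NaAsO2, so the ratio was higher in NaAsO2 than in Ctrl in the soluble fraction and lower in the pellet, with no overlap in either. MARS1 to MARS2 followed the same course, at 9.13, 9.83 and 11.5 and 19.97, 22.2 and 21.6 soluble and 16.6, 22.4 and 19.6 and 10.2, 8.84 and 11.6 in the pellet. LARS1 to LARS2 went from 2.01, 2.08 and 2.16 to 4.21, 3.54 and 4.41 in the soluble fraction and from 2.47, 2.699 and 2.52 to 2.21, 2.09 and 1.48 in the pellet. HARS1 to HARS2, a divergent gene pair, showed no such shift, at 2.87, 2.36 and 2.58 and 2.12, 2.46 and 2.34 soluble and 1.93, 2.61 and 2.405 and 2.36, 2.13 and 3.38 in the pellet, overlapping throughout. In each of the other pairs, named here without their number, the mean soluble ratio was higher in NaAsO2 than in Ctrl. SARS was at 53.1, 49.4 and 39.4 in Ctrl and 97.7, 40.4 and 39.1 in NaAsO2, so its higher mean rests on a single library. The soluble VARS ratios overlapped too and divide by the few counts of VARS2. The mean pellet ratio was lower for CARS, RARS, TARS and WARS and higher for IARS, NARS, SARS, VARS and YARS. TARS and WARS fell without overlap. YARS rose without overlap, from 6.31, 7.87 and 7.84 to 8.87, 8.83 and 11.8. These ratios were not tested.

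**Figure D4:**
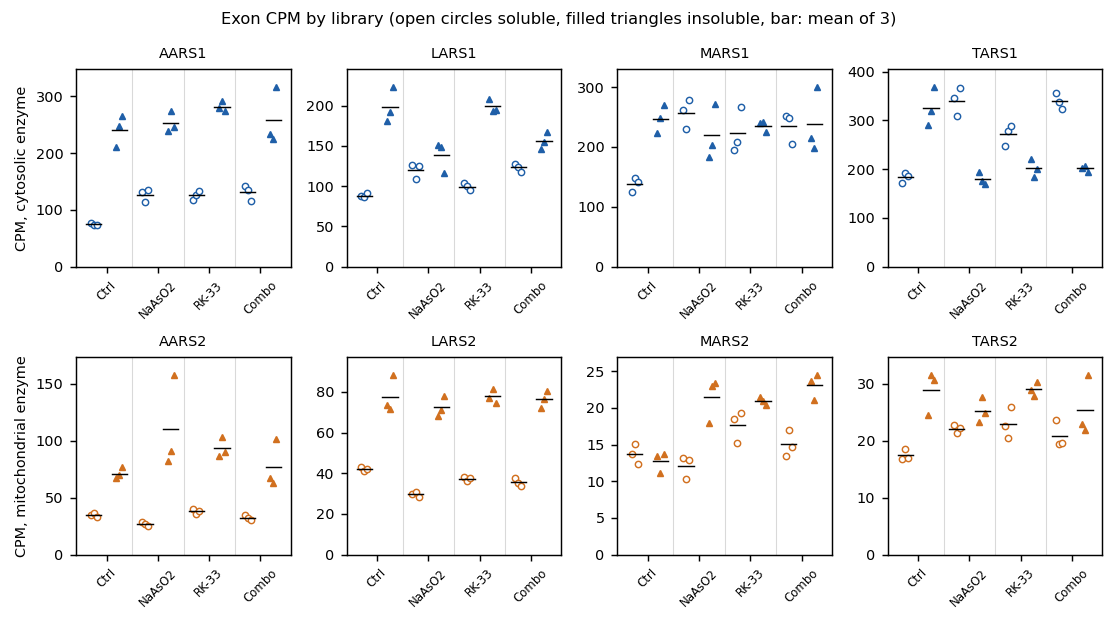
Exon CPM per library of the enzymes for alanine, leucine, methionine and threonine, cytosolic above and mitochondrial below, with open circles for soluble and triangles for insoluble libraries and a bar at the mean of 3. MARS1 soluble and MARS2 insoluble values are higher in NaAsO2 than in Ctrl, and for TARS1 the order of the fractions in NaAsO2, RK-33 and Combo is opposite to that in Ctrl.

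Intron counts cover 32 of the genes, because MARS2 has none and all intron bases of AARS2, SARS2 and VARS2 are shared with other genes. Such counts may come from unspliced or retained sequence or, as the paper proposes, from intron-derived or lariat RNA, and do not tell these apart. Introns made up a median of 8.89% of a cytosolic gene's counts and 28.95% of a mitochondrial gene's (12 genes). The share ran from 1.07% in QARS1 to 49.9% in FARSB, and from 7.13% in IARS2 to 87.5% in FARS2, the mitochondrial phenylalanyl enzyme. Shared intron bases limit YARS2 (60.0%), WARS1 (46.8%), GARS1 (29.1%), MARS1 (26.9%), FARSA (26.2%), NARS2 (22.6%) and CARS1 (19.5%).

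Between Ctrl fractions, introns of 3 cytosolic genes were called higher and 2 lower in the pellet, and 4 mitochondrial genes higher and 1 lower, where 18.2% of all genes tested were called higher and 21.5% lower. FARS2 introns were at 137, 134 and 164 CPM soluble and 306, 314 and 309 CPM insoluble, a log2 difference of 1.09 (SE 0.16, adjusted p = 1.05e-05). SARS1, the seryl enzyme, went the other way with 118, 139 and 114 CPM and 52.3, 54.7 and 45.8 CPM, a log2 difference of -1.28 (SE 0.20, adjusted p = 2.24e-05). PARS2 and AARS1 introns were also lower in the pellet, by -2.35 (SE 0.41, adjusted p = 6.29e-05) and -0.99 (SE 0.25, adjusted p = 0.00277), although AARS1 exons were higher there. In NaAsO2 cells 0 cytosolic genes were higher and 3 lower, and 1 mitochondrial gene higher and 2 lower, where 11.9% of all genes tested were called higher and 10.9% lower. KARS1 introns differed by -1.51 (SE 0.24, adjusted p = 2.95e-05). These splits depend on scaling: by library size alone the values shifted by -0.35 and -0.27 at the median, and the splits over both sets became 2 higher and 10 lower in Ctrl and 0 and 10 in NaAsO2. With only the groups compared there were 14 higher and 5 lower in Ctrl and 0 and 2 in NaAsO2.

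NaAsO2 against Ctrl called 0 cytosolic genes and 1 mitochondrial gene, PARS2, which fell, in soluble introns, where 1.86% of all genes tested were called higher and 3.43% lower. The PARS2 call was lost without any one of the 3 Ctrl libraries or without NaAsO2 replicate 2 of this fraction, and fitting only the groups compared called 5 genes. Exons of 15 cytosolic genes were called higher in the same libraries, and the difference between exons and introns was not tested. In the pellet 1 gene of each set was higher and 5 of each lower, where 18.7% of all genes tested were called higher and 12.6% lower. In a fit of the groups compared alone there were 3 cytosolic genes and 1 mitochondrial gene, all lower. KARS1 introns fell from 32.3, 30.9 and 31.3 CPM to 16.01, 10.7 and 15.6 CPM, a log2 difference of -1.15 (SE 0.23, adjusted p = 0.0005), and IARS2 introns from 59.9, 60.8 and 53.99 CPM to 28.4, 31.04 and 35.6 CPM, -0.88 (SE 0.16, adjusted p = 0.00016). CARS1, the cysteinyl enzyme, was the cytosolic gene that rose (0.55 (SE 0.15, adjusted p = 0.00758)). The nuclear RNAs MALAT1, NEAT1, KCNQ1OT1 and TUG1 summed to 7120 to 9069 CPM in the Ctrl and 2505 to 3735 CPM in the NaAsO2 pellet. By exon counts 2 of the 4 were called lower, where 21.9% of all genes tested were called higher and 21% lower. The part of these nuclear RNAs in the fall of introns was not tested.

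RK-33 raised introns of genes on the ATF4 list. In the soluble fraction 1 cytosolic gene, MARS1 (0.84 (SE 0.19, adjusted p = 0.0167)), and 0 mitochondrial genes were higher and 0 lower, where 0.971% of all genes tested were called higher and 0.103% lower. That call was lost without Ctrl replicate 2, Ctrl replicate 3, RK-33 replicate 2 or RK-33 replicate 3 of this fraction, while the fit without all 3 libraries standing apart called 4 cytosolic genes higher. In the pellet 5 cytosolic genes were higher and 0 lower, with 0 mitochondrial genes, where 2.07% of all genes tested were called higher and 0.735% lower. MARS1 introns went from 45.8, 47.1 and 40.04 CPM in Ctrl to 85.1, 101 and 82.5 CPM in RK-33, a log2 difference of 1.01 (SE 0.18, adjusted p = 0.000841). For CARS1 the values were 93.7, 83.8 and 84.2 CPM and 149, 189 and 152 CPM, 0.90 (SE 0.15, adjusted p = 0.000369). GARS1 (0.59), TARS1 (0.59) and IARS1 (0.50) completed the 5, all on the ATF4 list and all with the promoter motif shown above. AARS1 and NARS1, on the list and with the motif too, were not called. With any one library left out 2 or 3 of the 5 were still called, and by library size alone 2 genes were higher and 1 lower. Fitting only the groups compared called 5 cytosolic genes higher in the soluble fraction, and in the pellet 11 cytosolic genes higher and 3 mitochondrial genes higher and 1 lower.

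Combo against NaAsO2 gave calls in introns of ATF4-list genes, where exons had given none in edgeR's quasi-likelihood test. The difference between exons and introns was not tested. In the soluble fraction 6 cytosolic genes were called higher and 1 lower, and 2 mitochondrial genes higher and 2 lower, where 9.53% of all genes tested were called higher and 4.83% lower. All 6 are on the ATF4 list: MARS1, AARS1, CARS1, TARS1, GARS1 and IARS1. MARS1 introns were at 41.1, 41.5 and 48.6 CPM in NaAsO2 and 94.3, 95.6 and 88.8 CPM in Combo libraries, a log2 difference of 1.09 (SE 0.19, adjusted p = 0.000131). AARS1 had 49.6, 40.4 and 47.2 CPM and 101, 104 and 69.2 CPM, a log2 difference of 0.997 (SE 0.24, adjusted p = 0.00436). DDIT3, whose gene overlaps MARS1 introns too, rose by 1.86 on the log2 scale in exons of these libraries. Of the 22879 MARS1 intron bases not shared with introns of other genes, 0 lie in exons of other genes. That follows from how introns were defined, with all exon bases left out. The part of DDIT3 in the MARS1 intron value was not tested. CARS1 rose by 0.96 (SE 0.15, adjusted p = 4.11e-05) and TARS1 by 0.82 (SE 0.16, adjusted p = 0.00047), and the Combo libraries lay above all NaAsO2 libraries for each of these genes. KARS1 fell (-0.81), as did RARS2 (-0.57). IARS2 introns dropped from 41.6, 39.6 and 43.04 CPM to 23.4, 19.3 and 17.04 CPM, a log2 difference of -1.06 (SE 0.17, adjusted p = 4.82e-05), and EARS2 (0.95) and WARS2 (0.65) rose.

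In the pellet 7 cytosolic genes were higher and 2 lower, and 1 mitochondrial gene was higher and 2 lower, where 13.1% of all genes tested were called higher and 13.5% lower. Of these 12 calls IARS2 alone remained when only the groups compared were fitted. GARS1 introns were at 51.4, 43.9 and 35.2 CPM in NaAsO2 and 87.3, 94.1 and 66.9 CPM in Combo, a log2 difference of 0.92 (SE 0.17, adjusted p = 0.000177). TARS1 (0.73 (SE 0.15, adjusted p = 0.000876)), TARS3 (0.62) and MARS1 (0.58) followed, and MARS1 values overlapped, with the NaAsO2 replicate 3 library at 86.1 CPM. IARS2 introns fell again, from 28.4, 31.04 and 35.6 CPM to 13.6, 14.1 and 13.8 CPM, a log2 difference of -1.19 (SE 0.17, adjusted p = 6.86e-06). VARS1 (-0.81), TARS2 (-0.91) and KARS1 (-0.70) fell, and WARS2 (0.75) rose. IARS1 (0.36) was called too, but not with the replicate number as a block (adjusted p = 0.05004). By library size alone the splits over both sets were 5 higher and 3 lower in the soluble fraction instead of 8 and 3, and 4 and 5 in the pellet instead of 8 and 4. The same nuclear RNAs summed to 2505 to 3735 CPM in the NaAsO2 and 5807 to 6466 CPM in the Combo pellet, and to 6416 to 8710 and 9184 to 12020 CPM in the soluble fractions. Their part in the intron result was not tested.

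**Figure D5:**
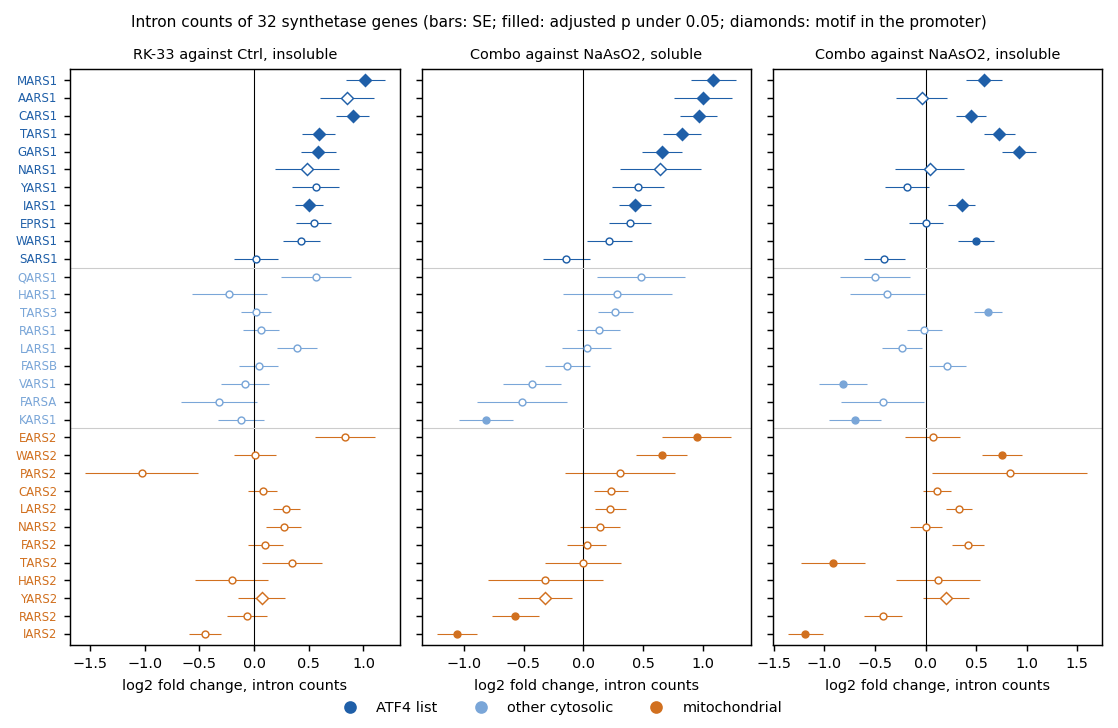
Log2 fold change of intron counts of the 32 synthetase genes with bars of 1 SE in 3 comparisons, filled where adjusted p is under 0.05 and with diamonds where the promoter holds the motif, ATF4-list genes in dark blue, other cytosolic genes in light blue and mitochondrial genes in orange. MARS1, CARS1, TARS1, GARS1 and IARS1 are filled above 0 in all 3 comparisons, and IARS2 is at -1.06 and -1.19 in Combo against NaAsO2.

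Other known targets of ATF4 were taken as a list of 12 genes. Their introns were called higher in Combo than in NaAsO2 in 8 of 10 genes tested in both fractions, with medians of 1.30 soluble and 1.18 insoluble, where 9.53% (soluble) and 13.1% (insoluble) of all genes were called higher. Their exons were called higher in 6 of 12 genes in both fractions, where 4.74% and 6.59% of all genes were and the synthetases gave 0. ATF3, a stress transcription factor, rose by 2.31 (SE 0.11, adjusted p = 2.46e-12) in soluble exons and DDIT3, the pro-apoptotic factor CHOP, by 1.86 (SE 0.17, adjusted p = 1.52e-07). The paper instead reports less ATF3 RNA after co-treatment than after arsenite alone. Its comparison of these treatments used spike-in scaling over both fractions combined, whereas the values here are shares within a fraction. NaAsO2 against Ctrl raised 4 of the 12 and lowered 2 in the soluble fraction, where 5.97% of all genes tested were called higher and 6.99% lower, and the lowered ones were the amino acid transporters SLC7A5 (-0.88) and SLC7A11 (-1.01).

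Partners of the synthetases were taken as 4 lists. In the Ctrl pellet 2 of 3 scaffold genes, 2 of 4 mitochondrial charging partners and 2 of 3 proofreading genes were called lower, 1 charging partner was higher, and 0 of 4 delivery and maturation genes were called, where 24.6% of all genes tested were called higher and 26.4% lower. The proofreading D-aminoacyl-tRNA deacylases DTD1 and DTD2 were lower in the Ctrl pellet by -0.998 (SE 0.16, adjusted p = 2.89e-05) and -1.39 (SE 0.30, adjusted p = 0.000563), and AIMP1 and AIMP2 were lower in the pellet in all 4 treatments. AIMP1 was at 52.4, 52.6 and 50.05 CPM soluble and 22.7, 22.4 and 15.9 CPM insoluble in NaAsO2 cells. Of the partners that complete glutaminyl- and methionyl-tRNA in mitochondria (GATB, GATC, QRSL1, MTFMT), 3 had introns tested. In the pellet, Combo against NaAsO2 called 1 of these higher and 1 lower. Of all genes tested, 13.1% were called higher and 13.5% lower. The lower one was MTFMT, by -1.597 (SE 0.22, adjusted p = 3.99e-06). EEF1A1, the factor that delivers charged tRNA to the ribosome, rose in the soluble fraction after NaAsO2 by 0.62 (SE 0.17, adjusted p = 0.0159), the only one called of 4 delivery and maturation genes.

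NARS2 was the one synthetase gene with a listed circular RNA, a back-splice at chr11:78465876-78493195 on the minus strand. It had 0 to 3 back-splice counts per soluble library and 0 or 1 per insoluble library, too few for a comparison.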

How the data were processed

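Cytoplasmic RNA of U2OS cells, split into a supernatant and a pellet, was depleted of rRNA and sequenced from a directional kit. The authors aligned reads to GRCh38 with STAR 2.7.2b and counted fragments per gene with featureCounts of Subread over exons and, in a separate table, over introns with all exon bases left out. The deposited values are raw counts per gene. The authors' counting took no account of strand, so genes that overlap cannot be separated by strand. Circular RNA counts came from the DCC caller.

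Here genes split over lines were rejoined, with the counts taken from the end of the last line (1 in the exon and 21 in the intron table). Counts of all 24 libraries in 8 groups were fitted together with edgeR 4.0.16 (R 4.3.3), with TMM scaling, a mean of at least 1 CPM (17666 exon and 17406 intron genes), glmQLFit and glmQLFTest, and Benjamini-Hochberg adjustment over all genes tested. A gene was called at an adjusted p under 0.05. TMM factors for exons were 0.810 to 1.09. The SE is the log2 fold change divided by the square root of its F statistic. DESeq2 1.42.0 and edgeR's likelihood ratio test were alternatives. The steps were tested on simulated data. Gene overlaps were read from the exon and intron coordinates deposited with the counts, and canonical transcripts from GENCODE 44.

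At most 4 genes per set and direction with the largest called log2 fold change were given in full, with pairs of one amino acid and the lowest and highest genes. The genes, lists and tests were chosen with earlier results of these data known. The comparison of introns between RK-33 and Ctrl in the soluble fraction, the fits without the 3 libraries standing apart and the canonical length were chosen after seeing the data.

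Replicate numbers were taken as pairing libraries only where the deviations from the group means correlated at an r over 0.1 in every pair. This held for Combo and NaAsO2 insoluble libraries (r of 0.381 to 0.666 for exons and 0.204 to 0.486 for introns). Fractions of the same lysate gave r of -0.289 to 0.110.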

Additional observations from a re-analysis of the deposited data

Results flagged for a closer look

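The values here are the tested differences between the fraction effect (insoluble against soluble, log2) of a treatment and that of Ctrl, which passed an adjusted p of 0.05 in edgeR's quasi-likelihood test. Between NaAsO2 and Ctrl the difference was negative for 20 genes. Among cytosolic genes it was -1.75 for TARS1, -1.48 for RARS1, -1.40 for GARS1, -1.29 for FARSB, -1.27 for EPRS1, -1.16 for QARS1, -1.08 for WARS1, -1.07 for MARS1 and -0.998 for SARS1. It was -0.97 for KARS1 and LARS1, -0.89 for CARS1, -0.70 for AARS1, -0.57 for IARS1, -0.56 for YARS1 and -0.46 for NARS1. Among mitochondrial genes it was -0.92 for RARS2, -0.67 for HARS2 and YARS2 and -0.59 for CARS2. It was positive for 3 genes, all mitochondrial, with 0.98 for AARS2, 0.92 for MARS2 and 0.41 for LARS2.

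Between RK-33 and Ctrl the difference was -1.26 for TARS1, -1.07 for EPRS1, -0.96 for QARS1, -0.81 for RARS1 and -0.72 for KARS1. Both sets of values rest on the same Ctrl libraries.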

How the results depend on the processing

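Of 678 alternative values of 43 summary results, 573 stayed within 1.5 times the main count or within 1 SD between replicates, and 105 moved. Of 212 called gene effects, DESeq2 lost 2 calls, the likelihood ratio test 1, RLE size factors 6, library size alone 31, no filter 39, only the groups compared 52, and exon plus intron counts 29 of 154. Signs turned in 4 cases, all with exon plus intron counts: WARS2 between fractions in Ctrl (0.57), RK-33 (0.67) and Combo (0.125), and FARSB in RK-33 (0.36). Causes were not tested unless an alternative's own construction shows them.

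Requiring a fold change of 1 or more on the log2 scale left 8, 6, 7 and 5 genes between fractions in Ctrl, NaAsO2, RK-33 and Combo, 1, 1 and 8 for NaAsO2 against Ctrl (soluble, insoluble, change of the fraction effect), 0, 0 and 2 for RK-33 against Ctrl, and for introns 3 and 3 between fractions in Ctrl and NaAsO2, 3 for NaAsO2 against Ctrl insoluble, 0 and 1 for RK-33 against Ctrl, and 2 and 1 for Combo against NaAsO2. Fitting only the groups compared gave 25, 3 and 15 genes for NaAsO2 against Ctrl, 11, 15 and 14 for RK-33 against Ctrl and 10 for Combo against NaAsO2 soluble. For introns that fit gave 19 and 2 between fractions in Ctrl and NaAsO2, 5 and 4 for NaAsO2 against Ctrl, 5 and 15 for RK-33 against Ctrl, and 1 for Combo against NaAsO2 insoluble.

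For Combo against NaAsO2, with 0 genes called, DESeq2 gave 2 soluble and 3 insoluble, library size alone 2 and 2, exon plus intron counts 4 and 5, and RLE 2, no filter 3 and the likelihood ratio test 1 insoluble. For the change between RK-33 and Ctrl, DESeq2 gave 11 and exon plus intron counts 2. No filter gave 10 for NaAsO2 against Ctrl soluble and 2 for RK-33 introns soluble. Library size alone gave 10 for NaAsO2 intron fractions and 3 for RK-33 introns insoluble, where DESeq2 gave 8. Without the 3 libraries standing apart the counts were 10 for RK-33 against Ctrl soluble, 13 for its change, 7 for Combo against NaAsO2 insoluble, 2 for its change and 4 for RK-33 introns soluble.

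With the replicate block, 16 of 212 effects lost their call. The change between RK-33 and Ctrl gave 2 genes instead of 5, and Combo against NaAsO2 insoluble gave 1 instead of 0. In the latter comparison the numbers met the correlation rule for pairing, which replicate 3 standing apart in both groups can also produce. The block kept the intron count of that comparison within 1.5 times. In fraction comparisons the block was the lysate, the counts stayed within 1.5 times, and TARS2 and WARS2 in RK-33, GARS1, NARS1 and WARS1 in Combo, and introns of FARSB in Ctrl and FARS2 in NaAsO2 lost their call. The changes of the fraction effect rest on the same lysates, and there HARS2, LARS2 and NARS1 (NaAsO2 against Ctrl) and KARS1, QARS1 and RARS1 (RK-33 against Ctrl) lost theirs. In the other treatment comparisons the samples share only a number.

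The median cytosolic minus the median mitochondrial log2 fold change moved with exon plus intron counts to 0.12, -0.34, -0.50 and -0.34 between fractions in Ctrl, NaAsO2, RK-33 and Combo, to 0.10 for NaAsO2 against Ctrl insoluble and to 0.24 for RK-33 against Ctrl soluble. Without the 3 libraries it was -0.10 in RK-33 and -0.27 in Combo fractions, -0.14 for Combo against NaAsO2 insoluble, and 0.0825 for NaAsO2 fractions and 0.26 for Combo against NaAsO2 insoluble in introns. Without GARS1 and KARS1 it was -0.14 in RK-33 and 0.0907 in Combo fractions. The ratio of median levels was 5.08 by TPM and 7.33 by canonical length.

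Leaving out single libraries ended 237 of 1440 calls. Counts ranged from 8 to 15 for NaAsO2 against Ctrl soluble, 3 to 6 for the change between RK-33 and Ctrl, 0 to 1, 0 to 5 and 0 to 1 for Combo against NaAsO2 (soluble, insoluble, change), and in introns 3 to 8 for NaAsO2 fractions, 0 to 1 for NaAsO2 against Ctrl soluble, 0 to 1 and 2 to 3 for RK-33 against Ctrl, and 6 to 9 for Combo against NaAsO2 soluble. Set differences ranged from -0.25 to -0.10 in RK-33 and -0.27 to -0.0256 in Combo fractions and -0.11 to 0.0912 for Combo against NaAsO2 insoluble. In introns they ranged from -0.26 to -0.0332 in Ctrl and -0.26 to 0.0852 in NaAsO2 fractions, 0.0672 to 0.30 for NaAsO2 against Ctrl soluble, and -0.32 to 0.21 for Combo against NaAsO2 insoluble. Few counts limit PARS2 introns (0 to 44 counts per library), SARS2 and VARS2.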
